A study of Dunaliella salina with 6 samples.

Results

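Fatty acid and membrane lipid genes of *Dunaliella salina* Bardawil were picked from the deposited annotation by symbol, using the usual prefixes for enzymes of fatty acid synthesis, desaturation and glycerolipid assembly, or by a fatty acid desaturase domain (Pfam PF00487 or PF03405). This gave 65 of the 25081 genes in the expression table, 62 by symbol and 3 by domain alone. The organism is a unicellular green alga that lives in brine and lacks a rigid cell wall. Wild-type vegetative cells were grown in liquid culture for 3 days at 24 °C under constant light with 1 M NaCl, and poly(A) RNA of 3 flasks with no iron added (0 µM, -Fe from here on) and of 3 flasks with 1.5 µM iron added (+Fe) was sequenced as 50 nt single-end reads. The comparison asks which of these transcripts differ when no iron is added. The labels do not say how much iron the medium held before any was added. Levels are given as FPKM, which is corrected for transcript length and nominally for sequencing depth, although how libraries were scaled to each other is not stated. Single values are listed in the order of replicates 1, 2 and 3.

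The symbols were checked against the domains in the annotation. On their names and domains, 11 of the 65 members were set aside as of doubtful label. DESI1, DESI2 and DESI3 have a PPPDE peptidase domain, as deSUMOylating isopeptidases do, and FADS1 has a molybdopterin-binding domain and no desaturase domain. LPA1, LPA1L, LPA2, LPA3 and LPA19 carry names known in Arabidopsis for proteins that help to assemble photosystem II. MCT2 has ankyrin repeats and no acyltransferase domain, and LIPB1 has no domain. MCT1, BCX1B, DGTT6A and DGTT6B have no domain either, so their labels rest on the symbol alone, and these 4 were not set aside. The 11 remain in every count of members unless stated. The members lie on 16 chromosomes, and 4 pairs are direct neighbours on the same strand: LCS2A and LCS2B, LCS3A and LCS3B, BCX1A and BCX1B, and DGTT6A and DGTT6B. How reads matching both genes of a pair were assigned is not stated in any source at hand. LCS3A has the domain PF13193 alone and LCS3B has PF00501 alone, while LCS1A, LCS1B and LCS2B each hold both. Each model is counted here as a gene, and whether a pair is a single gene split across models was not tested.

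In green algae and plants, fatty acids are built in the plastid. Acetyl-CoA carboxylase makes malonyl-CoA, a transferase loads the malonyl group onto acyl carrier protein, and a cycle of condensation, reduction, dehydration and a further reduction lengthens the chain. Desaturases then introduce double bonds with a non-heme iron centre, drawing electrons from ferredoxin in the plastid and from cytochrome b5 in the endoplasmic reticulum. The chains end in the galactolipids and the sulfolipid of thylakoid membranes, in phospholipids, or in triacylglycerol, the storage oil.

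In -Fe, genes for fatty acid synthesis, phosphatidic acid and the main galactolipid were among those that fell, and the desaturase gene FAD2 rose. Of the 65, 63 reached the minimum mean level of 1 FPKM and were tested with limma on the log2(FPKM + 1) scale, with Benjamini-Hochberg adjustment over all 13909 genes tested. MCT2, which was listed at 0 in 5 libraries, and the lipase gene LIP1A, at 0.167 to 0.305 FPKM, were not tested. At an adjusted p under 0.05, 11 of the 63 (17.5%) differed, against 9.39% of all genes tested. In -Fe 10 were lower (15.9% of the 63, against 5.20% of all genes) and 1 was higher (against 4.19%). The median log2 fold change, -Fe over +Fe, was -0.08 for the members and 0.00 for all genes tested. No change was large, and the values ran from -0.67 to 0.65. At an unadjusted p under 0.05 there were 20 lower and 5 higher, 25 of 63, against 13.2%, 11.8% and 25.0% of all genes. Without the 11 members of doubtful label, 9 of 53 differed, 8 lower and 1 higher. Without the 4 further members that have no domain, 7 of 49 differed, 6 lower and 1 higher. In 28 of the 63 (44.4%) the groups did not overlap, 21 lower and 7 higher in -Fe, against 30.2% of all genes tested, 16.0% lower and 14.2% higher.

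**Figure D1:**
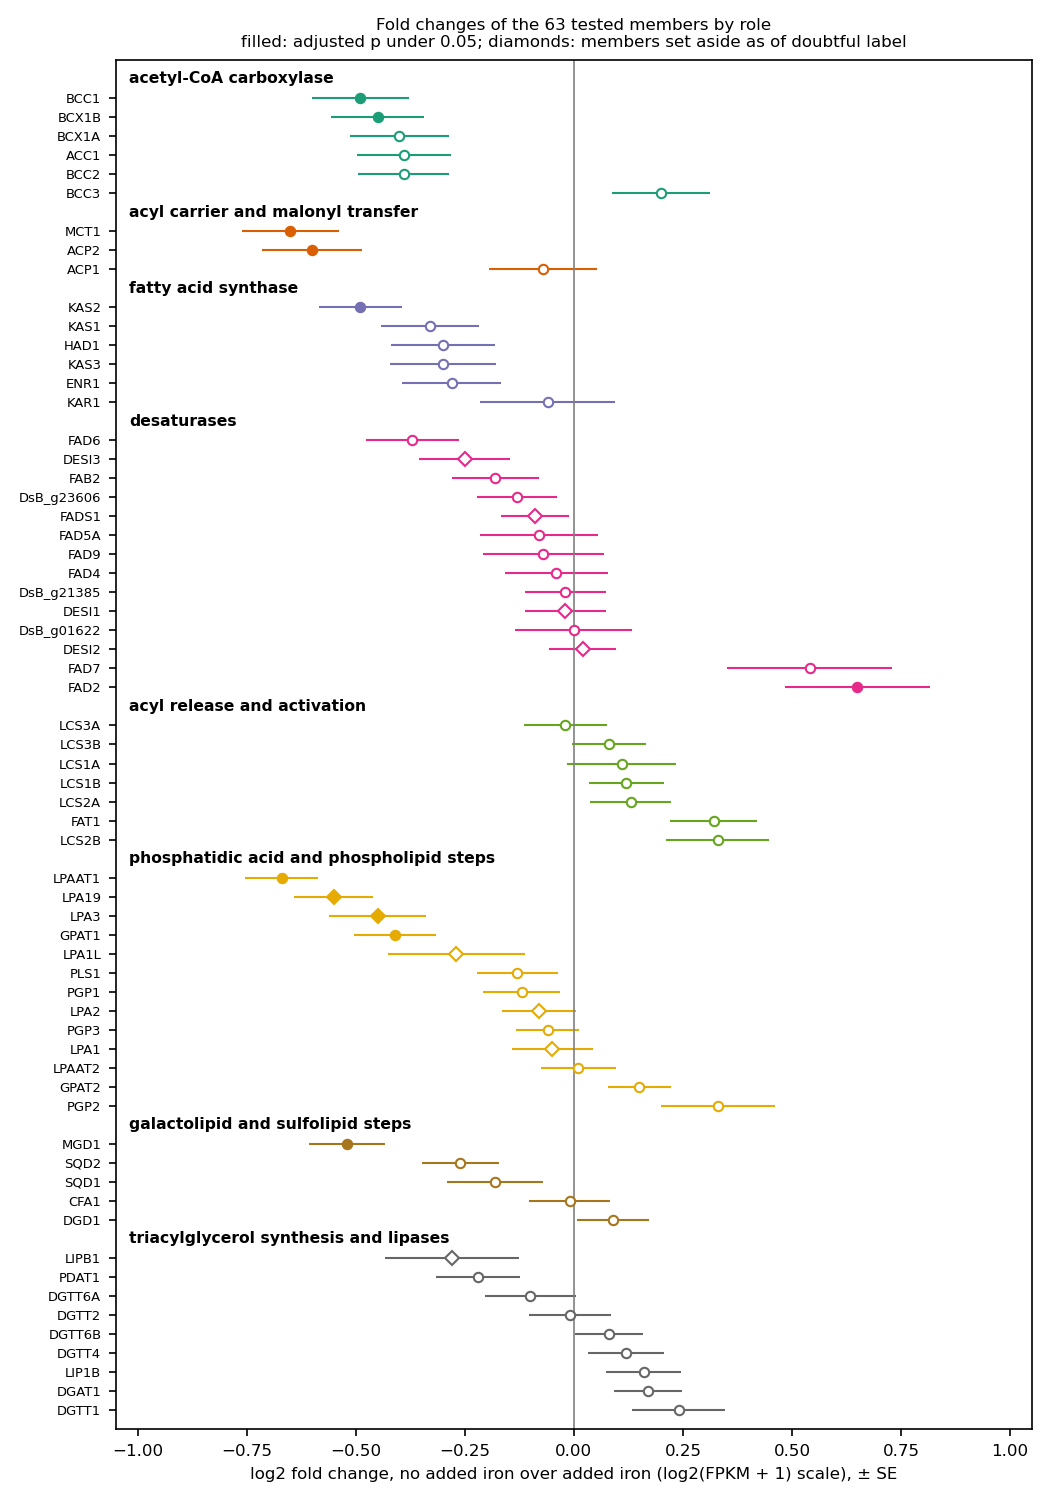
Log2 fold change (no added iron over added iron, log2(FPKM + 1) scale) of each tested member with its standard error, grouped by role. Filled symbols mark the 11 genes with an adjusted p under 0.05, and diamonds mark the tested members set aside as of doubtful label. Filled symbols lie below 0 in the fatty acid synthesis, phosphatidic acid and galactolipid lists, and the 1 filled symbol above 0 is FAD2.

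The count of members depended on single libraries and on the scale. Without replicate 2 of -Fe only LPAAT1 passed (1 of 63, against 4.21% of all genes). Removal of replicate 3 of -Fe again gave 11, now 7 lower and 4 higher (6.13% and 6.69% of all genes, 12.8% in all). Removal of replicate 1 of -Fe left 8 (against 5.29% of all genes), and removal of replicates 1, 2 or 3 of +Fe left 4, 6 and 5 (against 5.69%, 4.80% and 4.97%). The steps between low FPKM values fitted best with a length offset of 0 nt in replicates 1 and 2 of each group and of 202 nt in replicate 3. That fit was weak in replicates 1 and 2. The ratio of ACP2 (396 nt of exon) to ACP1 (899 nt) was 5.15, 5.22 and 5.51 in -Fe and 7.53, 7.66 and 7.68 in +Fe, so replicate 3 was close to the others. The labels name no such split, and whether the replicate 3 libraries differ in kind was not tested. Replicates 1 and 2 by themselves gave 11 members, 6 lower and 5 higher, against 4.73% lower and 7.26% higher of all genes (12.0% in all). The replicate 3 libraries, 1 per group, can only be set side by side. Column sums were 472982 to 537245 FPKM in -Fe and 538457 to 610113 in +Fe. With every column rescaled to a sum of 1000000, the median of all genes moved to 0.17 and 25 members passed, 12 lower and 13 higher, against 3.96% and 22.9% of all genes (26.9% in all). On that scale 9 of the 10 lower members passed again, all but BCC1, and FAD2 passed again as higher. Median-of-ratios factors gave 18 lower and 2 higher (7.42% and 6.31% of all genes, 13.7% in all), and quantile normalization 16 lower and 4 higher (7.89% and 7.56%, 15.4% in all). Without a minimum level 6 were lower and 0 higher (2.63% and 2.17%, 4.81% in all). With the replicate number as a block 3 were lower and 0 higher (3.22% and 2.62%, 5.85% in all), although the numbers were not found to pair the flasks.

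Genes of plastid fatty acid synthesis made up 5 of the 10 lower members. The lists for acetyl-CoA carboxylase, acyl carrier protein with malonyl transfer, and the fatty acid synthase cycle together held 15 tested genes. Of these, 5 fell in -Fe, 0 rose and 10 did not pass, where 5.20% of all genes tested fell and 4.19% rose. Their median log2 fold change was -0.39. The groups did not overlap in 11 of the 15, all lower in -Fe, against 16.0% of all genes lower and 30.2% in either direction. MCT1 and BCX1B, 2 of the 5 that fell, have no domain. The summed FPKM of the lists was 2063, 1846 and 1773 in -Fe and 2516, 2399 and 2834 in +Fe, so every -Fe library lay below every +Fe library. The column sums of all genes were ordered in the same way. A large part of the list sum came from 1 gene, ACP2, with 782, 719 and 674 FPKM in -Fe and 1046, 1005 and 1252 in +Fe. In bulk samples such as these, fewer cells expressing a gene and less RNA per cell cannot be told apart.

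Acetyl-CoA carboxylase, often regarded as the entry step of fatty acid synthesis, was represented by 6 genes, of which 2 fell. BCC1 (DsB_g13044, chromosome 7, 7879990 to 7884707, plus strand, 8 exons) has the biotinyl domain of a biotin carboxyl carrier protein, the subunit that carries the carboxyl group between active sites. Its FPKM was 135, 114 and 131 in -Fe and 196, 170 and 168 in +Fe. The highest -Fe library stayed below the lowest +Fe library. BCC1 fell from 178 ± 15.7 to 126 ± 11.1 (SD, n = 3), a log2 change of -0.49 with an SE of 0.111 (limma adjusted p = 0.0324).

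BCX1B (DsB_g22663, chromosome 14, 6717188 to 6723063, plus strand, 4 exons), named as a beta-carboxyltransferase subunit, had an FPKM of 131, 107 and 118 in -Fe and 171, 153 and 161 in +Fe. The groups did not overlap, and the gene fell by 0.45 on the log2 scale (SE 0.107, limma adjusted p = 0.0387). Its neighbour BCX1A, 453 nt away, had values close to these: 145, 119 and 120 in -Fe and 177, 156 and 175 in +Fe. At -0.40 (SE 0.114) BCX1A did not pass (limma adjusted p = 0.0655), but without replicate 1 of -Fe it passed at -0.50 (0.0474). The other carrier protein gene BCC2 did not pass at -0.39 (limma adjusted p = 0.0573), nor did ACC1, with the alpha-carboxyltransferase domain, at -0.39 (limma adjusted p = 0.0623). These were the 3 members nearest to the threshold on its far side, and in each of them all 3 -Fe libraries lay below all 3 +Fe libraries. BCC3, which joins biotin carboxylase and biotinyl domains in 1 gene of 42 exons, stood apart in level and sign: its FPKM was 9.88 ± 0.534 in -Fe and 8.55 ± 1.42 in +Fe (SD, n = 3), at 0.20 (limma adjusted p = 0.325).

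The symbol rule does not take BC1 (DsB_g02842, chromosome 2, 8409960 to 8431328, plus strand, 13 exons), which has biotin carboxylase domains and belongs to the list of other lipid-related domains described further on. Its FPKM was 110, 101 and 93.8 in -Fe and 141, 131 and 153 in +Fe, and it fell by 0.47 (SE 0.106, limma adjusted p = 0.0313). The calls of the carboxylase genes depended on single libraries. Without replicate 2 of -Fe the adjusted p was 0.140 for BCC1, 0.166 for BCX1B and 0.118 for BC1, and without replicate 1 of +Fe it was 0.114, 0.135 and 0.0947. Leaving out replicate 2 of +Fe gave 0.0805, 0.0904 and 0.0645, and leaving out replicate 3 of +Fe gave 0.0643, 0.0970 and 0.0914. BCC1 also missed the threshold without replicate 1 of -Fe (0.0570), and BCX1B and BC1 without replicate 3 of -Fe (0.0575 and 0.0530). The values from replicates 1 and 2 by themselves were -0.55 for BCC1, -0.45 for BCX1B and -0.36 for BC1 (limma adjusted p = 0.0518, 0.0862 and 0.0646), beside -0.36, -0.45 and -0.70 between the replicate 3 libraries.

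ACP2 (DsB_g01760, chromosome 1, 25220509 to 25222421, plus strand, 6 exons), an acyl carrier protein, was the most abundant member. Acyl carrier protein holds the growing chain on a phosphopantetheine arm. The FPKM of ACP2 was 782, 719 and 674 in -Fe and 1046, 1005 and 1252 in +Fe, which placed its mean above that of 99.2% of all genes tested. No -Fe library reached the lowest +Fe library, and ACP2 fell by 0.60 on the log2 scale (SE 0.114, limma adjusted p = 0.0173). The other acyl carrier protein gene, ACP1, had 137 ± 14.8 in -Fe and 144 ± 16.6 in +Fe (SD, n = 3), and its groups overlapped (-0.07, limma adjusted p = 0.773, 95% interval -0.36 to 0.21). The ratio of ACP2 to ACP1, in which the scaling of a library cancels, was 5.15, 5.22 and 5.51 in -Fe and 7.53, 7.66 and 7.68 in +Fe.

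MCT1 (DsB_g15284, chromosome 8, 17163790 to 17180212, plus strand, 9 exons) is named for malonyl-CoA:acyl carrier protein transacylase, which loads acyl carrier protein with malonyl groups, although the annotation gives it no domain. Its FPKM was 48.9, 45.0 and 42.8 in -Fe and 65.5, 69.1 and 81.5 in +Fe. The groups did not overlap, and MCT1 fell by 0.65 (SE 0.111, limma adjusted p = 0.0110), the largest fall among the 15 fatty acid synthesis genes on the log2 scale. ACP2 and MCT1 passed in replicates 1 and 2 by themselves at -0.45 and -0.51 (limma adjusted p = 0.0492 and 0.0244), and between the replicate 3 libraries they differed by -0.89 and -0.91. Without replicate 2 of -Fe the adjusted p was 0.0667 for ACP2 and 0.0533 for MCT1, and without replicate 1 of +Fe it was 0.0506 for ACP2. With quantile normalization the value of ACP2 was -0.23. As a replicate block, the number gave MCT1 an adjusted p of 0.0565.

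The fatty acid synthase list held 6 enzymes, and 1 of them passed. KAS2 (DsB_g05544, chromosome 3, 10904791 to 10920466, plus strand, 14 exons) is annotated as the plastid 3-oxoacyl-[acyl-carrier-protein] synthase II, the condensing enzyme known in plants for the elongation to a stearoyl chain. Its FPKM was 34.9, 33.0 and 33.4 in -Fe and 46.6, 44.5 and 52.6 in +Fe, with no overlap. KAS2 fell by 0.49 (SE 0.0950, limma adjusted p = 0.0184). The call was lost without replicate 2 of -Fe (0.0880) and without replicate 1 or 3 of +Fe (0.0561 and 0.0527). Replicates 1 and 2 by themselves gave -0.41 (limma adjusted p = 0.0341), and the replicate 3 libraries differed by -0.64.

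The other condensing enzymes and the rest of the cycle did not pass. KAS1, known for most of the elongation rounds, had an FPKM of 84.1 ± 6.19 in -Fe and 106 ± 11.9 in +Fe (SD, n = 3), at -0.33 (limma adjusted p = 0.113). KAS3, known for the first condensation, had 35.7 ± 2.22 and 44.5 ± 6.55 (SD, n = 3), at -0.30 (limma adjusted p = 0.170). The enoyl reductase ENR1 had 122, 114 and 104 in -Fe and 126, 134 and 155 in +Fe, and the dehydratase HAD1 had 91.6, 80.5 and 75.4 and 95.1, 95.4 and 116. Neither overlapped between groups, at -0.28 and -0.30 (limma adjusted p = 0.164 and 0.164). The ketoacyl reductase KAR1 was nearest to 0, with 84.4 ± 14.8 FPKM in -Fe and 87.6 ± 12.3 in +Fe (SD, n = 3) and a value of -0.06 (limma adjusted p = 0.855, 95% interval -0.42 to 0.30). In all 6 genes of the list the replicate 3 libraries gave a lower value than replicates 1 and 2 did: -0.64 to -0.52 against -0.41 to 0.18. This was not particular to the list. ACP1 (-0.41 against 0.10) and FAD5A (-0.44 against 0.10) did the same, while BCC1 (-0.36 against -0.55) and LPAAT1 (-0.62 against -0.69) did not. Replicate 3 also had the lowest column sum of -Fe (472982) and the highest of +Fe (610113).

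**Figure D2:**
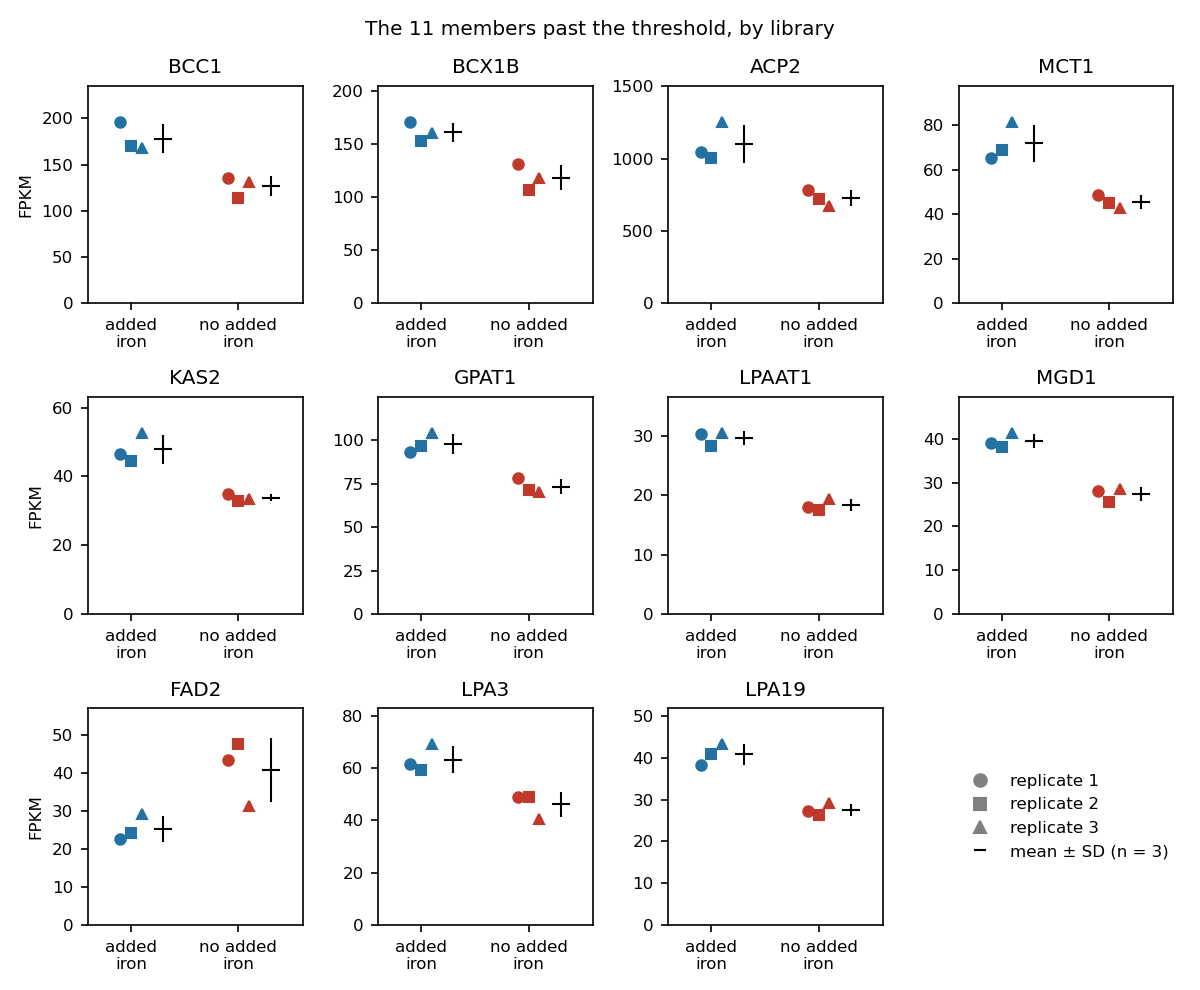
FPKM of the 11 members past the threshold in each library, with replicates as separate symbols and the mean ± SD (n = 3) beside them, on axes that start at 0. The groups do not overlap in any of the 11 panels, and FAD2 is the panel in which the libraries without added iron lie above the others, with replicate 3 the closest to them.

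The desaturase list held 14 genes, 4 of them of doubtful label (DESI1 to DESI3 and FADS1). The other 10 are the 9 genes with a desaturase domain and FAD4. Of these 10, 1 rose in -Fe, 0 fell and 9 did not pass, where 4.19% of all genes rose and 5.20% fell. Their summed FPKM was 753, 759 and 629 in -Fe and 675, 694 and 819 in +Fe, so the groups overlapped.

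FAD2 (DsB_g04289, chromosome 2, 25422428 to 25431680, plus strand, 11 exons) is named for the omega-6 desaturase of the endoplasmic reticulum, which turns oleate into linoleate. Its FPKM was 43.5, 47.6 and 31.3 in -Fe and 22.6, 24.1 and 29.2 in +Fe. The groups did not overlap, but replicate 3 of -Fe lay just above replicate 3 of +Fe. FAD2 rose from 25.3 ± 3.47 to 40.8 ± 8.45 (SD, n = 3), a log2 change of 0.65 with an SE of 0.167 (limma adjusted p = 0.0477), and was the 1 member that rose. Replicates 1 and 2 by themselves gave 0.93 (limma adjusted p = 0.00565), whereas the replicate 3 libraries differed by 0.10. The adjusted p was 0.129 and 0.154 without replicates 1 and 2 of -Fe, and 0.132, 0.136 and 0.0655 without replicates 1, 2 and 3 of +Fe. It was 0.00743 without replicate 3 of -Fe.

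FAD7 (DsB_g16508, chromosome 9, 11401773 to 11410549, plus strand, 10 exons) is named for the plastid omega-3 desaturase, which makes trienoic fatty acids. Its libraries were ordered much like those of FAD2: 135, 150 and 96.7 FPKM in -Fe and 70.9, 87.3 and 102 in +Fe. Replicate 3 of -Fe lay within the range of the +Fe group, and FAD7 did not pass at 0.54 (SE 0.190, limma adjusted p = 0.121, 95% interval 0.10 to 0.98). It passed in replicates 1 and 2 by themselves at 0.85 (limma adjusted p = 0.0209) and without replicate 3 of -Fe at 0.73 (0.0290), and the replicate 3 libraries differed by -0.07. Rescaled columns also gave a pass, at 0.73 (0.0171).

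FAD6 (DsB_g08500, chromosome 4, 19863172 to 19868983, minus strand, 9 exons) is named for the plastid omega-6 desaturase and was the most abundant desaturase by FPKM. It had 158, 151 and 148 in -Fe and 189, 182 and 223 in +Fe. All -Fe libraries were lower, but FAD6 did not pass at -0.37 (SE 0.107, limma adjusted p = 0.0709). It passed as lower with columns rescaled (-0.19, limma adjusted p = 0.0460).

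Ratios between desaturases within a library do not depend on how libraries were scaled. These pairs were chosen after their values were seen. FAD2 relative to FAD6 was 0.275, 0.314 and 0.212 in -Fe and 0.120, 0.132 and 0.131 in +Fe, and every -Fe library was higher. FAD7 relative to FAD6 was 0.852, 0.994 and 0.655 in -Fe and 0.376, 0.480 and 0.456 in +Fe, again without overlap. FAD2 relative to FAD7 was 0.323, 0.316 and 0.324 and 0.319, 0.276 and 0.288, and the groups overlapped. The levels of FAD2 and FAD7 thus kept a similar proportion in the 6 libraries, while the proportion of each to FAD6 did not overlap between groups. For FAD2 this follows from the levels above: FAD2 was higher and FAD6 lower in every -Fe library, so their ratio could not overlap. The share of such ratios over all gene pairs was not worked out.

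The remaining desaturases did not pass, and in 7 of 7 the groups overlapped. FAB2, with the soluble acyl-carrier-protein desaturase domain (PF03405) of the enzyme that makes the first double bond of stearate, had 120 ± 7.44 FPKM in -Fe and 136 ± 9.09 in +Fe (SD, n = 3), at -0.18 (limma adjusted p = 0.318). DsB_g23606, the other gene with that domain, had 19.2 ± 1.03 and 21.2 ± 1.70 (SD, n = 3; limma adjusted p = 0.419). FAD5A, named for a plastid desaturase of palmitate, had 85.9 ± 7.07 and 91.2 ± 14.7 (SD, n = 3; limma adjusted p = 0.773). FAD4, which in Arabidopsis desaturates the palmitate of phosphatidylglycerol, had 34.8 ± 4.67 and 35.6 ± 2.17 (SD, n = 3; limma adjusted p = 0.879). FAD9 and DsB_g01622 each join a cytochrome b5 domain, an electron carrier, to the desaturase domain. FAD9 had 43.8 ± 5.48 and 46.0 ± 6.78 FPKM, and DsB_g01622 had 73.3 ± 9.60 and 73.3 ± 9.14 (SD, n = 3; limma adjusted p = 0.804 and 0.992). DsB_g21385 was the least abundant of the 10, at 16.1 ± 1.16 and 16.3 ± 1.23 (SD, n = 3; limma adjusted p = 0.919). The 95% intervals of these 7 log2 changes all lay between -0.40 and 0.31.

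Genes that release fatty acids from acyl carrier protein or activate them with coenzyme A did not pass, 7 of 7, with a median log2 change of 0.12. The thioesterase gene FAT1, with the acyl-ACP thioesterase domain, stands for the step that ends synthesis in the plastid. Its FPKM was 15.8, 14.9 and 12.4 in -Fe and 11.2, 11.4 and 11.3 in +Fe, and all -Fe libraries were higher. FAT1 did not pass at 0.32 (SE 0.0993, limma adjusted p = 0.0907). It passed in replicates 1 and 2 by themselves at 0.41 (0.0321), without replicate 3 of -Fe at 0.41 (0.0170) and with columns rescaled at 0.50 (0.00679).

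The long-chain acyl-CoA synthetase genes LCS2B and LCS2A, neighbours on chromosome 2, were the most abundant of the acyl release list. LCS2B had 109, 91.2 and 88.3 FPKM in -Fe and 82.8, 69.8 and 76.9 in +Fe, at 0.33 (limma adjusted p = 0.131), and LCS2A had 82.7, 75.1 and 71.5 and 69.7, 68.4 and 70.5, at 0.13 (limma adjusted p = 0.425). In both, every -Fe library was higher. LCS1A had 26.6 ± 3.30 and 24.6 ± 3.03 (SD, n = 3; limma adjusted p = 0.650), with overlapping groups. LCS1B had 7.20 ± 0.529 and 6.56 ± 0.449, LCS3A had 19.4 ± 1.54 and 19.8 ± 1.44, and LCS3B had 12.9 ± 0.810 and 12.2 ± 0.761 (SD, n = 3), and their groups overlapped too. LCS3B shares ground with another model on the opposite strand, and no source at hand says if reads were counted by strand. The summed FPKM of the 7 genes was 278, 244 and 238 in -Fe and 230, 209 and 222 in +Fe, the 1 role list whose sum was higher in every -Fe library.

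**Figure D3:**
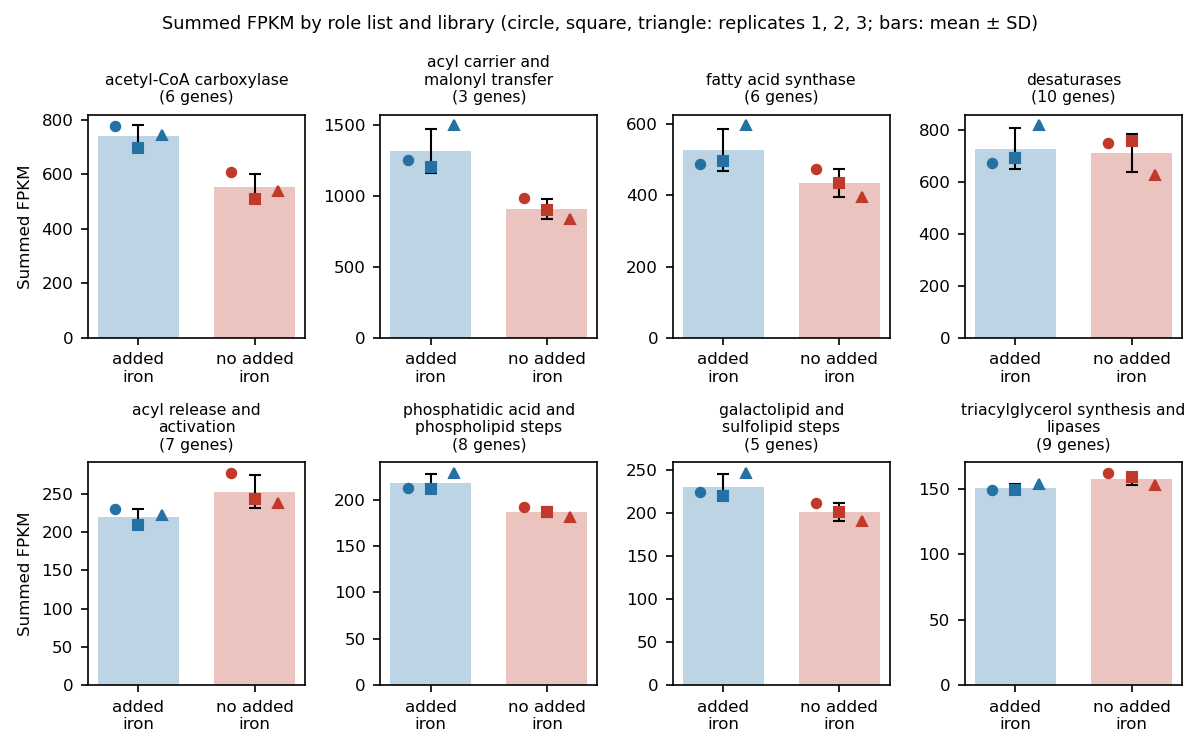
Summed FPKM of each role list in each library, without the members of doubtful label, as points for replicates and bars for the mean ± SD (n = 3), on axes that start at 0. The sums of the acetyl-CoA carboxylase, acyl carrier, synthase, phosphatidic acid and galactolipid lists do not overlap and are lower without added iron, that of acyl release and activation does not overlap and is higher, and those of desaturases and triacylglycerol genes overlap. Column sums of all genes are lower without added iron too (472982 to 537245 against 538457 to 610113 FPKM). With columns rescaled, the median log2 changes of the lower lists, in the order named, are -0.22, -0.42, -0.12, 0.08 and 0.0. For all genes that median is 0.17.

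Phosphatidic acid, the common precursor of membrane and storage glycerolipids, is made by acylating glycerol 3-phosphate at both free positions. By symbol, each of these steps had a pair of genes, and in each pair 1 gene fell and the other did not pass. The acyltransferase domain of these genes (PF01553) was also in PGA1, PGA6 and DsB_g11761, outside the symbol rule. They did not pass, at -0.01, -0.30 and -0.03 (limma adjusted p = 0.972, 0.0636 and 0.863). LPAAT1 (DsB_g06100, chromosome 3, 18650292 to 18665525, minus strand, 8 exons), with the acyltransferase domain and the name of a lysophosphatidic acid acyltransferase, stands for the last of these steps. Its FPKM was 18.0, 17.5 and 19.4 in -Fe and 30.2, 28.3 and 30.4 in +Fe, with a gap between groups far wider than the spread within them. LPAAT1 fell by 0.67 (SE 0.0838, limma adjusted p = 0.00271), the largest fall among the members on the log2 scale. It was the 1 member that passed in all 15 alternatives, with values of -0.71 to -0.50. Its value was -0.69 (0.00967) in replicates 1 and 2 by themselves and -0.62 between the replicate 3 libraries.

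LPAAT2, the other gene of that name, had 13.5 ± 1.21 FPKM in -Fe and 13.4 ± 0.197 in +Fe (SD, n = 3), at 0.01 (limma adjusted p = 0.972, 95% interval -0.19 to 0.21). The ratio of LPAAT1 to LPAAT2 was 1.46, 1.19 and 1.44 in -Fe and 2.22, 2.12 and 2.30 in +Fe, and every -Fe library was lower.

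GPAT1 (DsB_g20994, chromosome 12, 15574850 to 15581853, minus strand, 5 exons), a glycerol-3-phosphate acyltransferase gene with the domain PF14829 beside the acyltransferase domain, had 78.4, 71.1 and 70.4 FPKM in -Fe and 93.0, 96.4 and 104 in +Fe. GPAT1 fell by 0.41 (SE 0.0950, limma adjusted p = 0.0347), and the groups did not overlap. GPAT2, without PF14829, had 13.0, 13.2 and 12.6 and 11.3, 11.9 and 11.5. All -Fe libraries of GPAT2 were higher, but it did not pass at 0.15 (SE 0.0723, limma adjusted p = 0.258). GPAT1 relative to GPAT2 was 6.03, 5.38 and 5.60 in -Fe and 8.20, 8.08 and 9.03 in +Fe. With GPAT1 lower and GPAT2 higher in every -Fe library, this ratio could not overlap. The call of GPAT1 was lost with each library left out: its adjusted p was 0.0535, 0.150 and 0.0549 without replicates 1, 2 and 3 of -Fe and 0.0827, 0.110 and 0.0970 without those of +Fe. Replicates 1 and 2 by themselves gave -0.34 (0.0670), and the replicate 3 libraries differed by -0.55.

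PGP1, PGP2 and PGP3 have the CDP-alcohol phosphatidyltransferase domain and the symbol of phosphatidylglycerophosphate synthase, which starts phosphatidylglycerol, the main phospholipid of thylakoids. PGP2 had 35.9, 36.8 and 27.9 FPKM in -Fe and 27.1, 23.3 and 28.6 in +Fe. The groups overlapped through their replicate 3 libraries, and PGP2 did not pass at 0.33 (SE 0.131, limma adjusted p = 0.163). It passed in replicates 1 and 2 by themselves at 0.51 (0.0346), without replicate 3 of -Fe at 0.45 (0.0391) and with columns rescaled at 0.52 (0.00906), while the replicate 3 libraries differed by -0.03. PGP2 lies 23 nt from the next model on the same strand. PGP1 had 18.4 ± 0.860 and 20.1 ± 1.50, and PGP3 had 8.62 ± 0.135 and 9.06 ± 0.380 (SD, n = 3; limma adjusted p = 0.458 and 0.639). PLS1, with a scramblase domain, found in proteins that move phospholipids between leaflets, had 8.21 ± 0.548 and 9.13 ± 0.913 (SD, n = 3; limma adjusted p = 0.418).

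The galactolipid and sulfolipid list held 5 genes, of which MGD1 fell. MGD1 (DsB_g14960, chromosome 8, 12456802 to 12487246, minus strand, 13 exons), with the monogalactosyldiacylglycerol synthase domain, stands for the enzyme that makes the chief lipid of thylakoids. Its FPKM was 28.1, 25.5 and 28.5 in -Fe and 39.1, 38.2 and 41.3 in +Fe, and the gap between the groups was much wider than the spread within them. MGD1 fell by 0.52 (SE 0.0880, limma adjusted p = 0.0105). The change was -0.51 (0.0238) in replicates 1 and 2 by themselves and -0.52 between the replicate 3 libraries. Without replicate 2 of -Fe the adjusted p was 0.0633, and with the replicate block it was 0.0538.

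DGD1, which adds the further galactose of digalactosyldiacylglycerol, had 37.3, 34.3 and 35.0 FPKM in -Fe and 33.9, 32.6 and 33.5 in +Fe. It did not pass at 0.09 (SE 0.0826, limma adjusted p = 0.557), although all -Fe libraries were higher. The ratio of MGD1 to DGD1 was 0.754, 0.743 and 0.813 in -Fe and 1.15, 1.17 and 1.23 in +Fe. By FPKM, MGD1 was thus the less abundant of the pair in each -Fe library and the more abundant in each +Fe library. With MGD1 lower and DGD1 higher in every -Fe library, the ratio could not overlap. SQD1 and SQD2, which build the sulfolipid head group and attach it, were at -0.18 and -0.26 (limma adjusted p = 0.362 and 0.109), and their groups did not overlap, if barely so for SQD1. SQD1 had 103 ± 9.31 and 117 ± 9.88 FPKM, and SQD2 had 24.3 ± 0.810 and 29.4 ± 2.12 (SD, n = 3). CFA1, with the domain of cyclopropane fatty acid synthases, which modify double bonds in bacteria, had 11.2 ± 1.00 and 11.3 ± 0.840 (SD, n = 3; limma adjusted p = 0.982).

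**Figure D4:**
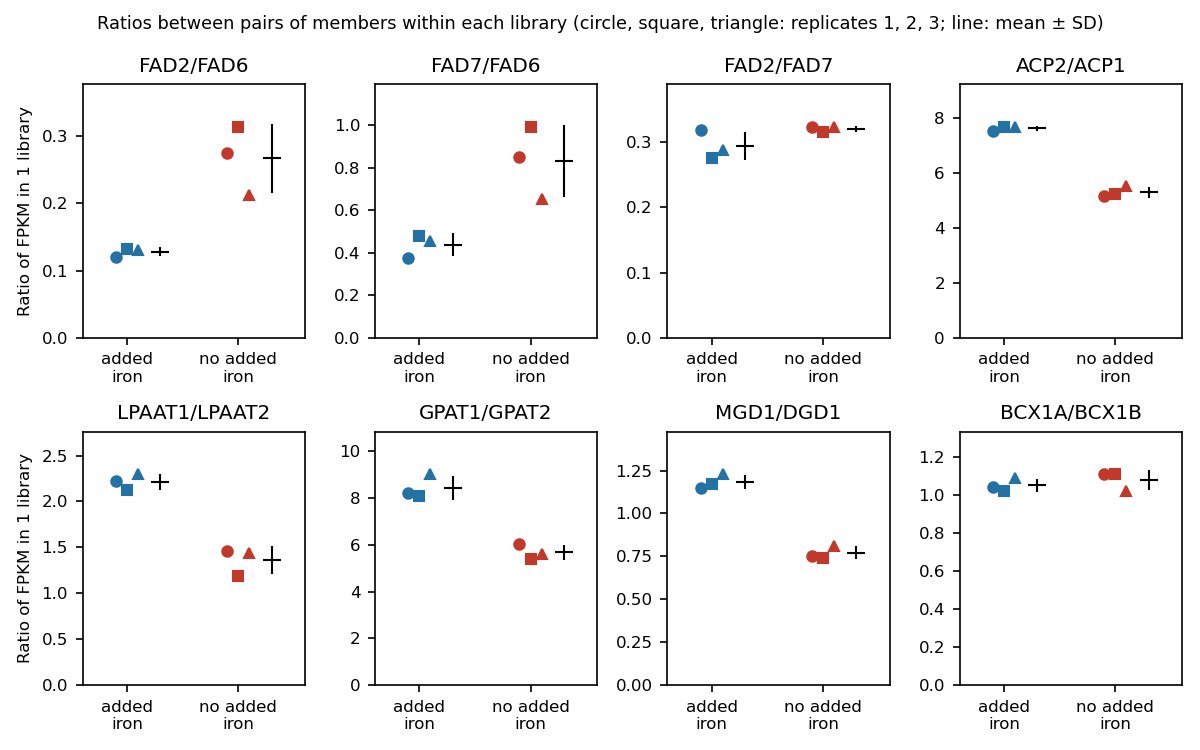
Ratios of FPKM between pairs of members in each library, with replicates as symbols and the mean ± SD (n = 3), on axes that start at 0. FAD2 and FAD7 are higher relative to FAD6 in all libraries without added iron and overlap relative to each other. ACP2, LPAAT1, GPAT1 and MGD1 are lower relative to ACP1, LPAAT2, GPAT2 and DGD1, and the ratio of the neighbours BCX1A and BCX1B overlaps. The ratios FAD2/FAD6, GPAT1/GPAT2 and MGD1/DGD1 could not overlap, since the genes of each moved in opposite directions in all libraries.

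Triacylglycerol synthesis and lipase genes did not pass, 9 of 9 tested, and their log2 changes were small, from -0.28 to 0.24. DGAT1 and the DGTT genes are named for acyltransferases that add the last acyl chain of triacylglycerol. DGTT2, DGTT1 and DGTT4 were the most abundant, at 39.8 ± 1.66, 37.4 ± 4.01 and 32.3 ± 2.14 FPKM in -Fe and 40.2 ± 3.11, 31.5 ± 1.92 and 29.7 ± 0.824 in +Fe (SD, n = 3; limma adjusted p = 0.960, 0.216 and 0.454). DGTT1 passed as higher in replicates 1 and 2 by themselves, at 0.36 (0.0496). DGAT1 was the least abundant tested member, at 6.08, 6.08 and 6.09 FPKM in -Fe and 5.67, 5.15 and 5.07 in +Fe. Its groups did not overlap, and it did not pass at 0.17 (SE 0.0773, limma adjusted p = 0.217). DGTT6A and DGTT6B, which have no domain in the annotation, had 11.6 ± 1.37 and 10.3 ± 0.336 in -Fe and 12.5 ± 0.896 and 9.71 ± 0.588 in +Fe (SD, n = 3). PDAT1, named for the enzyme that takes that chain from a phospholipid, had 11.5, 11.8 and 12.2 and 12.6, 13.6 and 15.8. All -Fe libraries of PDAT1 were lower, at -0.22 (SE 0.0966, limma adjusted p = 0.206). The lipase gene LIP1B had 8.65 ± 0.530 and 7.62 ± 0.605 (SD, n = 3; limma adjusted p = 0.288).

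Among the members of doubtful label, LPA19 and LPA3 fell. LPA19 (DsB_g19892, chromosome 11, 20153733 to 20157247, plus strand, 5 exons), with the Psb27 domain of a photosystem II assembly factor, had 27.2, 26.4 and 29.2 FPKM in -Fe and 38.2, 41.0 and 43.3 in +Fe, at -0.55 (SE 0.0906, limma adjusted p = 0.00932). LPA3 (DsB_g13767, chromosome 7, 18214657 to 18231437, minus strand, 10 exons) had 48.8, 49.0 and 40.6 and 61.6, 59.2 and 69.2, at -0.45 (SE 0.112, limma adjusted p = 0.0443). Neither gene had overlapping groups. Without replicate 2 of -Fe LPA19 had an adjusted p of 0.0550. LPA3 had 0.0765, 0.105 and 0.0643 without replicates 1, 2 and 3 of -Fe, and 0.104, 0.0910 and 0.124 without those of +Fe. Replicates 1 and 2 by themselves gave -0.54 and -0.30 (0.0179 and 0.0620), and the replicate 3 libraries -0.55 and -0.75. LPA1, LPA1L, LPA2, DESI1 to DESI3, FADS1 and LIPB1 did not pass, at -0.28 to 0.02.

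**Figure D5:**
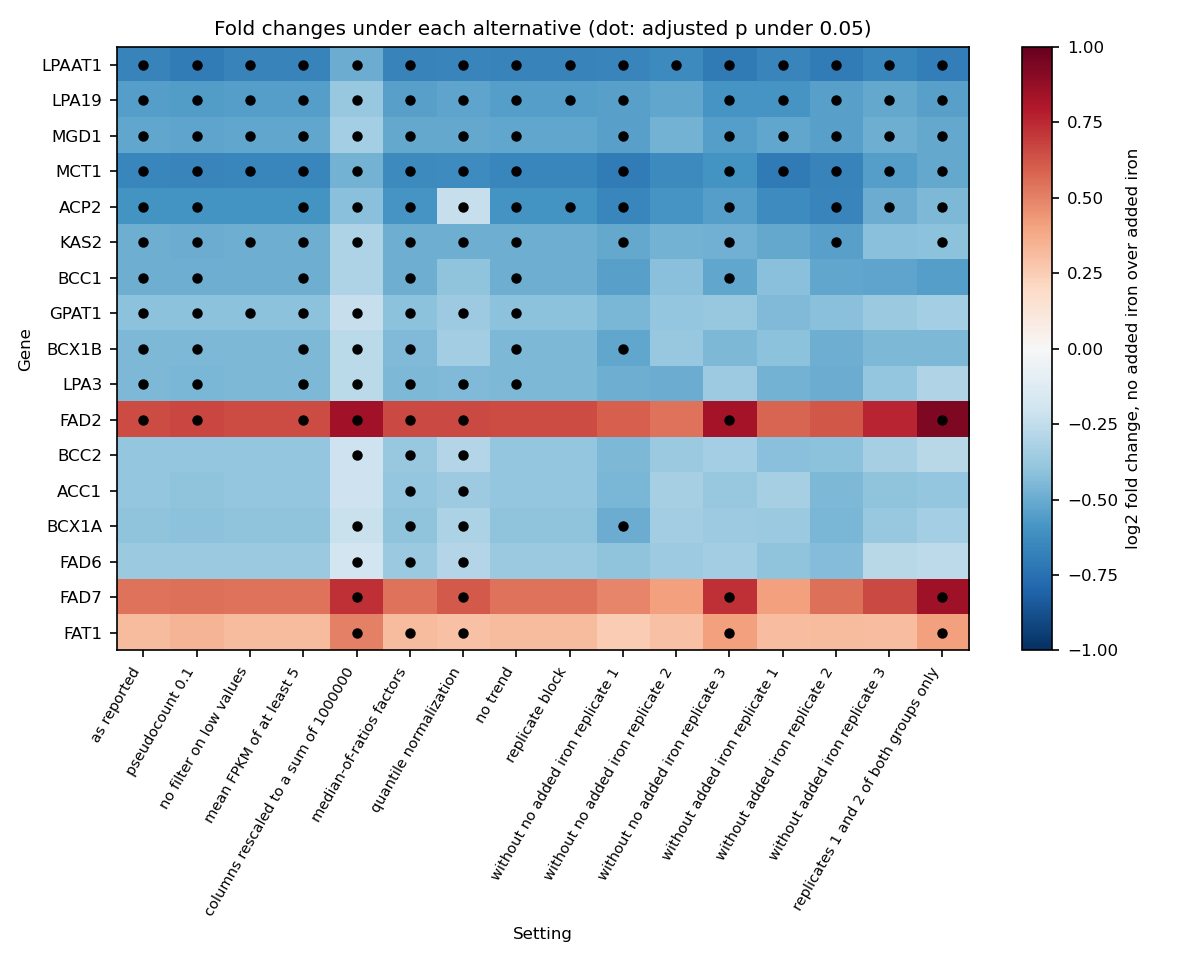
Log2 fold change (colour) of the 11 members past the threshold and of 6 that missed it, in the comparison as reported and in each of 15 alternatives, with a dot where the adjusted p was under 0.05. The direction of each gene is the same in all columns. LPAAT1 is dotted in every column, and only LPAAT1 is dotted without replicate 2 of no added iron.

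Other genes were taken by lipid-related domains, from Pfam accessions for fatty acid synthesis, acyl transfer, lipases, acyl activation with beta-oxidation, and cytochrome b5. Such domains also occur in genes of other pathways. The list held 100 genes outside the symbol rule, of which 91 were tested. In -Fe 8 rose and 5 fell, 13 of 91 (14.3%, against 9.39% of all genes, 4.19% higher and 5.20% lower), and the median was 0.03. With columns rescaled 31 were higher and 5 lower, on a scale where 22.9% of all genes were higher and 3.96% lower. The count was 1 to 4 with any 1 library left out other than replicate 3 of -Fe, whose removal gave 16. Across all genes those fits called 4.21% to 5.69%, and 12.8% without replicate 3 of -Fe.

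Domains of acyl activation or of beta-oxidation were present in 19 tested genes, of which 4 rose and 0 fell, against 4.19% and 5.20% of all genes. The list mixes genes that activate acids with genes that break down fatty acids and related acids. LCL1 (DsB_g14661), with an AMP-binding domain, had 29.3, 26.2 and 23.8 FPKM in -Fe and 19.6, 17.3 and 18.4 in +Fe, a rise of 0.49 (SE 0.102, limma adjusted p = 0.0223). The acyl-CoA oxidase gene ACX3 (DsB_g12079), named for the first step of peroxisomal beta-oxidation, had 16.7, 14.9 and 14.0 and 12.2, 11.0 and 11.5, a rise of 0.36 (limma adjusted p = 0.0458). Every -Fe library was higher in both. The others that rose were HIBCH1 and DsB_g15135, an AMP-binding gene, at 0.28 and 0.38 (limma adjusted p = 0.0433 and 0.0190). LCL1 and DsB_g15135 are thus in the list by a domain of activation, which LCS2A also has. ACX1, ACX2, KAT1 and ECH1 did not pass, at -0.03, -0.05, 0.12 and 0.0 (limma adjusted p = 0.885, 0.831, 0.585 and 0.997). For LCL1 the adjusted p was 0.0656 and 0.0822 without replicates 1 and 2 of -Fe and 0.0905 and 0.0696 without replicates 2 and 3 of +Fe. For ACX3 it was 0.120 and 0.131 without replicates 1 and 2 of -Fe and 0.0840, 0.154 and 0.117 without those of +Fe. HIBCH1 lost its call with each library left out (adjusted p from 0.0543 to 0.137). DsB_g15135 lost it for each but replicate 3 of -Fe (0.0652 and 0.0669 for -Fe, 0.0765, 0.0554 and 0.0578 for +Fe).

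The list of acyl transfer and glycerolipid domains, which also took in the PF04116 domain of sterol desaturases, held 27 tested genes. Of these 1 passed (3.7%), against 9.39% of all genes, and 4.19% as higher. The gene that passed is in the list by PF04116 alone, which is no acyl transfer domain. That gene, ERG3 (DsB_g14414, chromosome 8, 4542727 to 4549822, minus strand, 7 exons), is named for a sterol desaturase and has the domain of that iron-dependent family (PF04116). Its FPKM was 73.4, 74.7 and 58.1 in -Fe and 37.0, 41.9 and 49.7 in +Fe, a rise of 0.67 (SE 0.143, limma adjusted p = 0.0258). As in FAD2 and FAD7, replicate 3 was the lowest library of -Fe and the highest of +Fe. The same order was seen in ACP2, FAD6 and FAB2 and in the column sums of all genes, so it was not particular to these 3 genes. ERG3 was at 0.89 (0.00741) in replicates 1 and 2 by themselves and at 0.22 between the replicate 3 libraries. Without replicates 1 or 2 of -Fe the adjusted p was 0.0818 and 0.103, and without replicates 1 or 2 of +Fe 0.0819 and 0.0835.

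Of 12 genes with a cytochrome b5 domain, the electron donor of endoplasmic desaturases, 1 rose and 2 fell, against 4.19% and 5.20% of all genes. DsB_g00132, with that domain alone, had 31.2, 28.5 and 26.5 FPKM in -Fe and 21.0, 19.4 and 19.8 in +Fe, a rise of 0.49 (limma adjusted p = 0.0152). DsB_g09690, also with that domain alone, had 58.3, 57.0 and 58.2 and 77.9, 73.1 and 76.0, and fell by 0.38 (limma adjusted p = 0.0288). NIA1B (DsB_g23683) is named for nitrate reductase, which is no lipid enzyme. It had 60.6, 63.3 and 78.4 and 114, 118 and 127, at -0.83 (limma adjusted p = 0.00518), and passed in all 15 alternatives. DsB_g00132 lost the call without replicate 1 or 2 of -Fe (0.0505 and 0.0656) or replicate 2 or 3 of +Fe (0.0698 and 0.0538). DsB_g09690 lost it without replicate 1 or 2 of -Fe (0.0720 and 0.136) or replicate 1, 2 or 3 of +Fe (0.112, 0.0890 and 0.0736), and with columns rescaled (-0.20, limma adjusted p = 0.0729).

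Lipase domains gave 2 higher and 1 lower of 19 tested genes, against 4.19% and 5.20% of all genes, so that 1 lower of 19 (5.26%) is at the background. DsB_g04521 and DsB_g12507 share the same domain (PF04083) and differed in direction, at 0.48 and -0.53 (limma adjusted p = 0.0150 and 0.0397). The patatin-domain gene DsB_g09957 rose by 0.42 (limma adjusted p = 0.0272). DsB_g04521 lost the call without replicate 2 of +Fe (0.0646). DsB_g12507 lost it without replicate 1 or 2 of -Fe (0.101 and 0.119) or replicate 1, 2 or 3 of +Fe (0.103, 0.0716 and 0.125), and with columns rescaled (-0.38, limma adjusted p = 0.0907). DsB_g09957 lost it without replicate 1 or 2 of -Fe (0.0846 and 0.103) or replicate 1 or 2 of +Fe (0.0935 and 0.104). Besides BC1, the pyruvate carboxylase gene PYC1, which shares domains with acetyl-CoA carboxylase and belongs to another pathway, fell by 0.41 (limma adjusted p = 0.0198), and the other 12 of 14 tested genes with fatty acid synthesis domains did not pass. Without replicate 2 of -Fe PYC1 had an adjusted p of 0.108, and without replicates 1, 2 or 3 of +Fe 0.0723, 0.0803 and 0.0589, and its value with columns rescaled was -0.23.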

How the data were processed

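Per the series' design text and the submitters' processing notes, the authors aligned the reads with STAR 2.4.0j to their own assembly and made the deposited FPKM values with Cuffdiff 2.0.2, 1 column per flask. Scaling between libraries, strand and multiple matches are not stated. Symbols, Pfam accessions and coordinates (counted from 1) come from the authors' deposited annotation.

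FPKM values were taken to log2(FPKM + 1), and genes averaging at least 1 FPKM were compared with limma 3.58.1 in R 4.3.3, two-sided, with group as the only term and a mean-variance trend. The script was tested on simulated data with changes larger than those of any member, so recovery of changes of the members' size was not tested. Intervals are 95% intervals of that fit. P-values measure the spread between 3 flasks per group.

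Depth is not stated. The step between low values implied 18500000 to 24900000 reads per library. The best-fitting length offset was 0 nt in replicates 1 and 2 and 202 nt in replicate 3 of each group. Low values lay within 0.05 of a whole read in 43.8% and 43.9% of cases in replicate 3, but in 18.4% to 21.2% in replicates 1 and 2. The offset and implied reads of replicates 1 and 2 thus rest on a weak fit. Reads could not be recovered, and count tests were not used.

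Members, lists and alternatives were chosen with earlier results of these data known. Doubtful labels and ratio pairs were set after values were seen. The rule for named genes took members past the threshold, the 3 most abundant of each role list, desaturase-domain genes, the 3 nearest misses, and up to 5 called genes per direction among other domains. Further genes were named after their values were seen. No sequences are shown, since none of this strain were used here.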

Additional observations from a re-analysis of the deposited data

How the results depend on the processing

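The direction of the 11 members past the threshold held under 15 alternatives, and LPAAT1 alone passed in each. All genes called numbered 1306 as reported, 3736 with columns rescaled, 2148 with quantile normalization, and 586 to 1784 with 1 library left out. Members called (11 as reported) numbered 6 without a minimum level, 25 with columns rescaled, 20 with median-of-ratios factors, 20 with quantile normalization, 7 without members of doubtful label or with no domain (by construction, fewer genes), and 1 to 11 with 1 library left out. Members lower (10 as reported) numbered 6, 12, 18 and 16 in the same order, 6 in replicates 1 and 2 alone, and 1 to 8 with 1 library left out. Genes outside the rule (13 as reported) numbered 36 with columns rescaled, 26 with median-of-ratios factors, 26 with quantile normalization, and 1 to 16 with 1 library left out. The cause was not tested. With the replicate number as a block, 813 genes, 3 members (LPAAT1, LPA19 and ACP2, all lower) and 3 genes outside the rule passed. Same-numbered libraries deviated from their group means with correlations of 0.0246, 0.0776 and -0.1347 across genes, so the numbers were not taken to pair the flasks. Of the 52 tested members that did not pass, 23 changed sign in at least 1 alternative, 21 of them with columns rescaled, and 0 of these sign changes involved a value past the threshold. The smallest change of a member past the threshold was 0.41 on the log2 scale.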
